A study of Mus musculus with 9 samples.

Results

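The GABA-A receptor subunit genes Gabra2, Gabra3, Gabra4, Gabra5, Gabrb1, Gabrb2 and Gabrd were followed through 9 RNA libraries of sorted mouse hippocampal cells. These 7 genes were taken by name, matched from Ensembl identifiers to mouse symbols. They are 7 of the 19 genes in the tables whose symbol starts with Gabr, and 7 of 51912 genes in all. All 7 were found in each table, and all 7 had a mean of at least 1 CPM (counts scaled to the size of each library), as did 14787 genes in all.

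GABA-A receptors are ligand-gated chloride channels that carry most fast inhibition in the forebrain. Each is a ring of subunits, usually of alpha and beta subunits with a gamma or a delta subunit. The alpha subunit largely sets where in the neuron a receptor sits and how it responds to benzodiazepines, and receptors outside synapses give a steady, tonic inhibition.

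The cells came from male mice of the C57BL/6 strain with a Camk2a-Cre transgene, whose promoter is active in excitatory forebrain neurons. All animals were injected with an adeno-associated virus (rAAV5) whose mCherry, a red fluorescent protein, needs Cre, at a dose of 2.88e+08, 2.88e+09 or 2.88e+10 vector genomes, the lowest of which served the submitters as control. There was no uninjected control among the libraries analysed here. Red cells were sorted 3 weeks later, so that the transcriptome could be compared between doses. The design names 3 groups with 3 biological replicates each, but the labels of the single libraries, S1001 to S1009, are alike and give no dose. The count columns are headed H1, H2, H3, M1, M2, M3, L1, L2 and L3 for S1001 to S1009 in that order, and the labels do not say what these letters mean. The letters are used below only as marks of the files. No library was put in a dose group, no test was run, and ranges, not means with errors, are given.

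Total counts per library ranged from 12136830 to 19151596. Library pairs with the same letter differed by more than sampling noise, with a chi-square per degree of freedom of 2.67 to 5.14 among the H libraries, 24.3 to 33.6 among the M libraries and 27.2 to 38.9 among the L libraries, against 83.3 to 184 between letters. The H libraries were therefore far closer to each other than the M or the L libraries were. No source used here says whether any libraries share animals. Markers of several cell types were present and uneven. Summed CPM of 8 pyramidal neuron markers was 3341 to 3778 in the H libraries, 1703 to 1990.0 in the M libraries and 4007 to 6027 in the L libraries, and all 8 were detected in every library. Summed CPM of 13 microglia and macrophage markers was 18439 to 19891 in the H libraries, 6882 to 8763 in the M libraries and 31.5 to 178 in the L libraries. All 13 had counts in every library. Markers of the labelled cell type were thus present beside those of other cells, and in bulk RNA of this kind fewer cells of a type and less RNA per cell cannot be told apart.

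**Figure D1:**
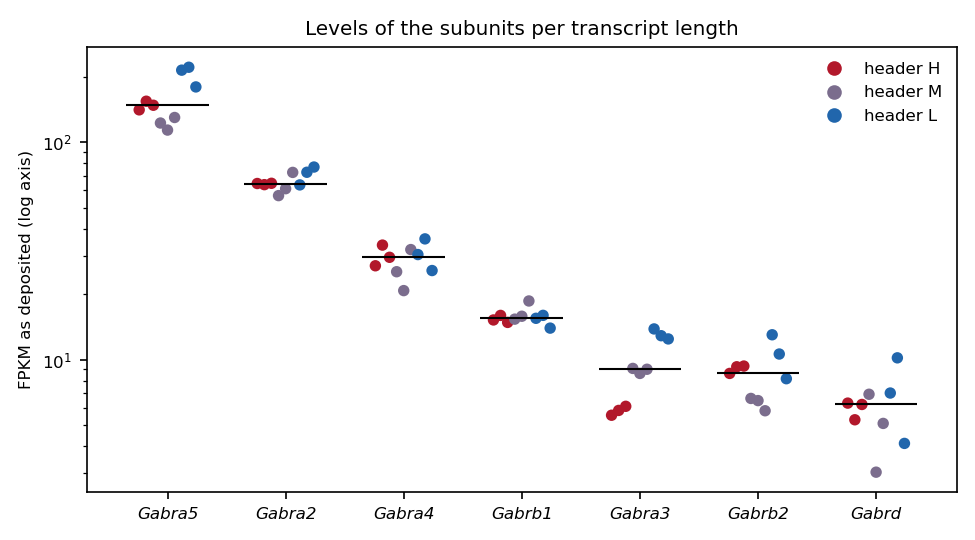
Deposited FPKM of each subunit in the 9 libraries, on a log axis. Points are libraries, coloured by header letter in the order H, M and L, and the bar is the median over all 9 libraries. Gabra5 was highest in every library, and Gabra3, Gabrb2 and Gabrd overlapped at the low end.

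Gabra5 was the most abundant of the 7 subunits in every library when levels were taken per length of annotated exons. Its deposited FPKM (fragments scaled to that length and to library size) had a median of 148 and ranged from 114 to 222. Receptors with this alpha subunit lie mostly outside synapses in hippocampal pyramidal neurons, where they carry tonic inhibition. Gabra2, an alpha subunit of synaptic receptors that is enriched at the axon initial segment of pyramidal neurons, followed with a median of 64.6 FPKM (56.8 to 76.9). Gabra4, which pairs with the delta subunit in dentate granule cells, had a median of 29.6 FPKM (20.8 to 35.9). Gabrb1, a beta subunit, had a median of 15.5 FPKM (13.9 to 18.6). These 4 genes held the same order in 9 of 9 libraries, and the FPKM ranges of neighbours in that order did not overlap.

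The 3 subunits of lowest level overlapped. Gabra3, an alpha subunit of low abundance in the adult hippocampus, had a median of 9.02 FPKM (5.54 to 13.8). Gabrb2, a beta subunit, had a median of 8.63 FPKM (5.81 to 13.0), and Gabrd, the delta subunit of extrasynaptic receptors, had 6.21 FPKM (3.03 to 10.2). Gabra3 exceeded Gabrb2 in 6 of 9 libraries, and Gabrb2 exceeded Gabrd in 8 of 9. Gabra3 was below Gabrb2 in S1001 to S1003 and above it in S1004 to S1009. The length behind each FPKM value matched the union of the gene's annotated exons, from 2875 bases for Gabrd and 2974 bases for Gabra5 to 13838 bases for Gabrb1. A gene whose expressed transcript is shorter than that union has its FPKM understated.

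The CPM values that differed most between header letters were those of Gabra3 and Gabra5. Gabra2 differed less, at 438 to 613 CPM over the libraries, though every H value was narrowly under every L value. The 250 bases before their RefSeq transcript start are printed for these 3 genes, to show the sequence that stands at each gene's start. They are from build GRCm38.p6, which is mm10, and each lies on the minus strand, at chrX:72656920-72657169 for Gabra3 (the first of its 2 starts in the table), chr7:57510060-57510309 for Gabra5 and chr5:71095850-71096099 for Gabra2. Capitals mark the letters of any of 6 motifs, searched on both strands: the core promoter element TATAAA, the upstream promoter element CCAAT, the Sp1 site GGGCGG, the cAMP response element TGACGTCA, the AP-1 site TGACTCA and the Egr site GCGNGGGCG.
Gabra3: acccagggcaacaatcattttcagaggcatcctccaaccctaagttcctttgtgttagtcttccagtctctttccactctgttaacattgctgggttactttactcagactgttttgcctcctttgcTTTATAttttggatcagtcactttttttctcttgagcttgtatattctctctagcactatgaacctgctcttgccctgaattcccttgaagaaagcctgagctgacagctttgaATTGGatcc
Gabra5: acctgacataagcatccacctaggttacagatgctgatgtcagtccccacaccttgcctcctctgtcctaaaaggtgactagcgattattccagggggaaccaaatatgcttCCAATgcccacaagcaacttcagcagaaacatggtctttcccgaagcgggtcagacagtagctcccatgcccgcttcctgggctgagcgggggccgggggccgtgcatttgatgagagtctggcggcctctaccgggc
Gabra2: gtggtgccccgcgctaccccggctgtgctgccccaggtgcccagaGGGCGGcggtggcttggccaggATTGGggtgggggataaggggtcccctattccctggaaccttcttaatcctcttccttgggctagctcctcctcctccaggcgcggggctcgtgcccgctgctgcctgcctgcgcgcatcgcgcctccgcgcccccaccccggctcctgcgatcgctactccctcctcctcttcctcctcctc

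The 3 windows differed in base composition. G and C made up 42.4% of the Gabra3 window, 56.4% of the Gabra5 window and 70.0% of the Gabra2 window, against a median of 52.4% over all 32851 windows of the table. Each held 1 match to CCAAT, which 33.8% of all windows hold. The Gabra3 window also held 1 match to TATAAA (12.4% of all windows), and the Gabra2 window 1 match to GGGCGG (32.7%). None of the 3 held TGACGTCA, TGACTCA or GCGNGGGCG, which are in 1.55%, 4.46% and 4.70% of all windows. A match describes the letters only.

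On the CPM scale Gabra3 had the widest spread of the 7 subunits over the libraries. It lies on chromosome X (ENSMUSG00000031343, 72432681 to 72656848, build mm10, minus strand). It measured 21.6, 22.8 and 23.9 CPM in S1001 to S1003 (H), 36.0, 32.4 and 34.5 CPM in S1004 to S1006 (M) and 56.1, 50.1 and 51.0 CPM in S1007 to S1009 (L). The ranges of the 3 letters did not overlap, H being lowest and L highest, although M was highest when counts were set against the summed pyramidal neuron markers. The spread, taken as the second highest minus the second lowest library on the log2(CPM + 1) scale, was 1.13. Its place as the widest turned under 3 other settings, where Gabrd had 1.69 against 1.34 for Gabra3 (highest minus lowest library), Gabrb1 had 1.41 against 1.37 (counts set against the summed pyramidal neuron markers) and Gabrd had 1.13 against 1.12 (the geometric mean of these markers). Within a letter, the highest and lowest library differed by 0.14 (H), 0.15 (M) and 0.16 (L) as log2 ratios of CPM. The counts behind these values were 264 to 834 per library.

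Gabra5 was highest in the L libraries and lowest in the M libraries, while M was highest against the summed pyramidal neuron markers. It lies on chromosome 7 (ENSMUSG00000055078, 57407672 to 57510059, minus strand), and its exons share 148 bases with Gm9962 on the opposite strand. It measured 417, 458 and 440.0 CPM in S1001 to S1003 (H), 368, 324 and 377 CPM in S1004 to S1006 (M) and 661, 654 and 558 CPM in S1007 to S1009 (L). The 3 ranges did not overlap. The spread was 0.83 on the log2 scale.

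Gabra2 and Gabra4, the other alpha subunits, were more even. Gabra2 (ENSMUSG00000000560, chromosome 5, 70957597 to 71095849, minus strand) measured 491, 486 and 494 CPM in the H libraries, 438, 447 and 542 CPM in the M libraries and 503, 552 and 613 CPM in the L libraries. Every H value was under every L value, by a margin of 494 against 503 CPM, and this separation was lost when library totals or DESeq2 size factors were used for scaling. Gabra4 (ENSMUSG00000029211, chromosome 5, 71569749 to 71658308, minus strand) measured 163, 204 and 179.6 CPM in the H libraries, 156, 121 and 190.4 CPM in the M libraries and 191, 217 and 163 CPM in the L libraries. S1005 was lowest and S1008 highest, and the letters overlapped.

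The 2 beta subunits differed from each other in their spread. Gabrb1 (ENSMUSG00000029212, chromosome 5, 71658113 to 72149037, plus strand) was the most even subunit on the CPM scale, at 209, 220.4 and 205 CPM in the H libraries, 214, 209 and 251 CPM in the M libraries and 222, 219 and 202 CPM in the L libraries. Its spread was 0.11 on the log2 scale, and 0.0879% of genes had a spread as small or smaller. It was 1.41, the widest of the 7, against the summed pyramidal neuron markers and 0.46 against their geometric mean. Gabrb2 (ENSMUSG00000007653, chromosome 11, 42419757 to 42629028, plus strand) measured 54.6, 58.8 and 59.3 CPM in the H libraries, 42.4, 39.4 and 36.1 CPM in the M libraries and 85.5, 66.9 and 54.2 CPM in the L libraries. The M values lay below all others, though not against the summed pyramidal neuron markers, where they were highest, and H and L overlapped because S1009 was at the level of the H libraries. Without S1009, every H value was under every L value.

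Gabrd, the delta subunit (ENSMUSG00000029054, chromosome 4, 155384980 to 155398112, minus strand), varied most of the 7 within the M and within the L libraries. It measured 18.0, 15.1 and 17.8 CPM in the H libraries, 20.1, 8.34 and 14.2 CPM in the M libraries and 20.9, 29.1 and 12.3 CPM in the L libraries. The highest and lowest library differed by 1.27 (M) and 1.24 (L) on the log2 scale within these letters, and the letters overlapped. Among the H libraries Gabrd differed by 0.25, less than Gabra4 at 0.32. Counts of Gabrd were 121 to 477, which gives a counting error (standard error) of up to 9.09% per library, the largest among the 7 genes.

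**Figure D2:**
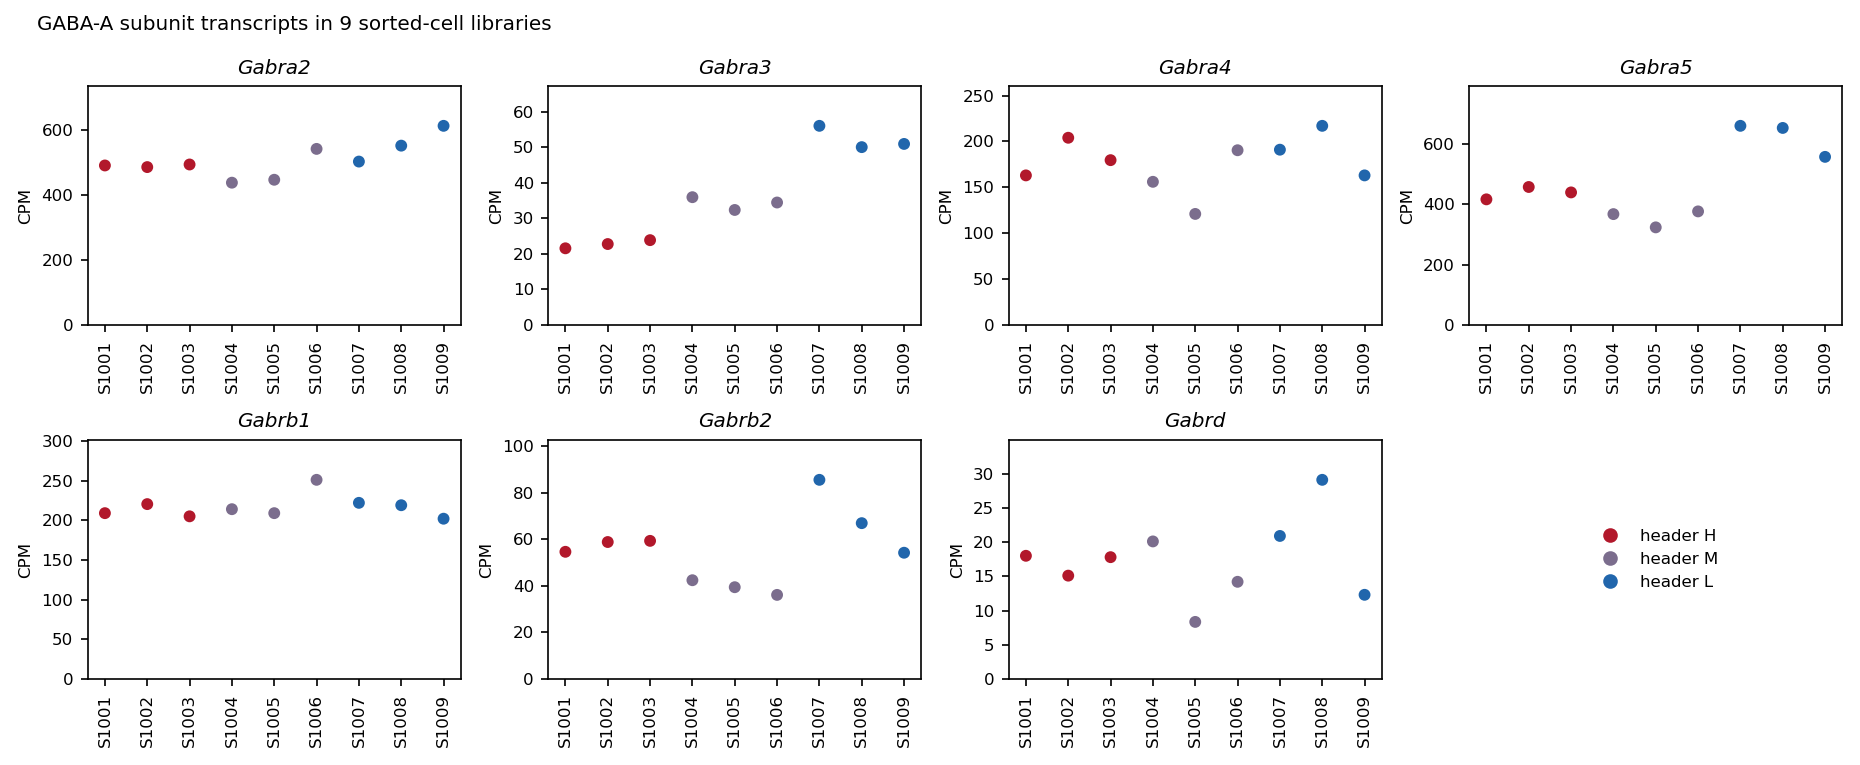
Level in CPM of the 7 subunits in each library, S1001 to S1009 from left to right, coloured by header letter H, M and L. Each vertical axis starts at 0. Gabrb1 was nearly level, and Gabra3 and Gabra5 were highest in the L libraries, whereas the M libraries were highest for both when counts were set against the summed pyramidal neuron markers.

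Read against all genes, the differences between letters were common. Of the 7 subunits, 1, Gabra3, had a spread of at least 2-fold, against 26.4% of the 14787 genes, and the median spread was 0.71 for the subunits and 0.66 for all genes on the log2 scale. Every H library was below every L library for 3 of 7 subunits (Gabra2, Gabra3 and Gabra5) and above for 0, against 26.2% and 24.7% of all genes. Every M library was below every L library for 3 of 7 (Gabra3, Gabra5 and Gabrb2) and above for 0, against 15.5% and 17.0% of all genes. Every H library was above every M library for 2 of 7 (Gabra5 and Gabrb2) and below for 1 (Gabra3), against 23.0% and 21.3% of all genes.

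**Figure D3:**
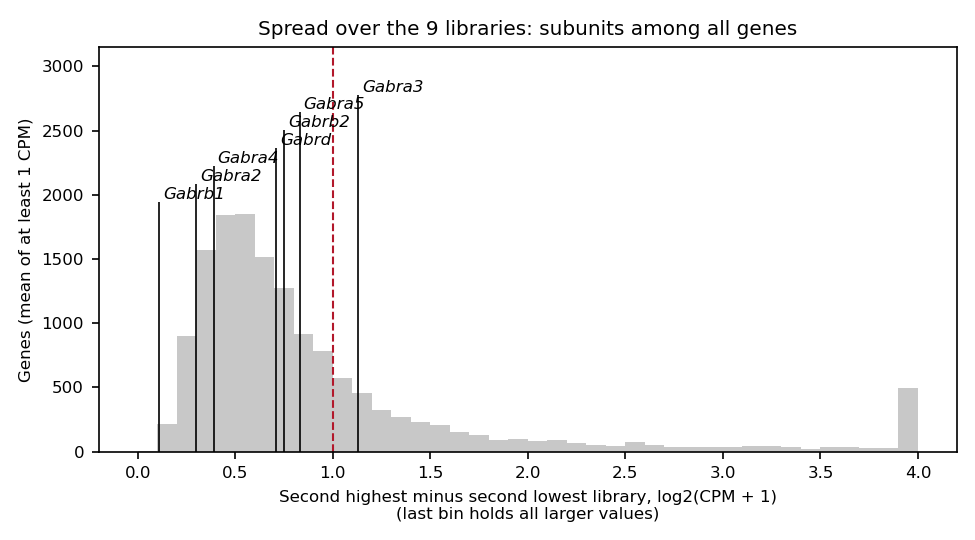
Spread of 14787 genes over the 9 libraries (grey bars, genes per bin of 0.1) with the 7 subunits as vertical lines. The dashed line marks 2-fold, a spread of 1, which Gabra3 alone among the subunits passed at 1.13, and Gabrb1 lay near the low end at 0.11.

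These directions depend on what the counts are set against. Library totals, DESeq2 size factors, totals without mitochondrial genes and the main factors without glial, vascular, immunoglobulin and MHC genes shifted no library by more than 0.07 on the log2 scale. Setting counts against the summed pyramidal neuron markers moved all genes by 0.82, 0.90 and 1.04 upward in the M libraries and by 0.19 to 0.78 downward in the L libraries. On that scale the M libraries were the highest for Gabra2, Gabra3, Gabra4, Gabra5, Gabrb1 and Gabrb2, and H and L overlapped for Gabra5, while H remained below L for Gabra3. Nrgn, a postsynaptic calmodulin-binding protein, held 33.8% to 69.7% of that sum. With each of the 8 markers weighted alike, an alternative chosen after seeing the data, H was again below L for Gabra3 and Gabra5, while M and L overlapped for Gabra3, Gabra5 and Gabrb2.

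Shares among the 7 subunits do not depend on the scaling between libraries. Gabra5 made up 30.3%, 31.3% and 31.0% of their summed counts in the H libraries, 28.9%, 27.4% and 26.1% in the M libraries and 38.0%, 36.6% and 33.8% in the L libraries. The 3 ranges did not overlap, and the 95% Wilson interval of a single library was narrow, for example 33.2% to 34.3% in S1009. Gabrb1 showed the opposite order, with 15.2%, 15.0% and 14.4% in the H libraries, 16.8%, 17.7% and 17.4% in the M libraries and 12.7%, 12.3% and 12.2% in the L libraries. Since shares sum to a fixed total, a larger share of Gabra5 lowers those of the other subunits.

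Gabra3 made up a smaller share in the H libraries than in any other. It held 1.57%, 1.56% and 1.68% in the H libraries, 2.83%, 2.74% and 2.39% in the M libraries and 3.23%, 2.80% and 3.08% in the L libraries. The highest upper bound of an H library was 1.88% (95% Wilson), and the lowest lower bound of the others was 2.19%, in S1006. The M and L ranges overlapped. Gabrb2 held 3.97% to 4.18% in the H libraries, 2.49% to 3.33% in the M libraries and 3.28% to 4.92% in the L libraries. Gabra2 (28.9% to 37.8%), Gabra4 (9.86% to 13.9%) and Gabrd (0.706% to 1.62%) each overlapped between letters. These intervals cover counting error only.

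**Figure D4:**
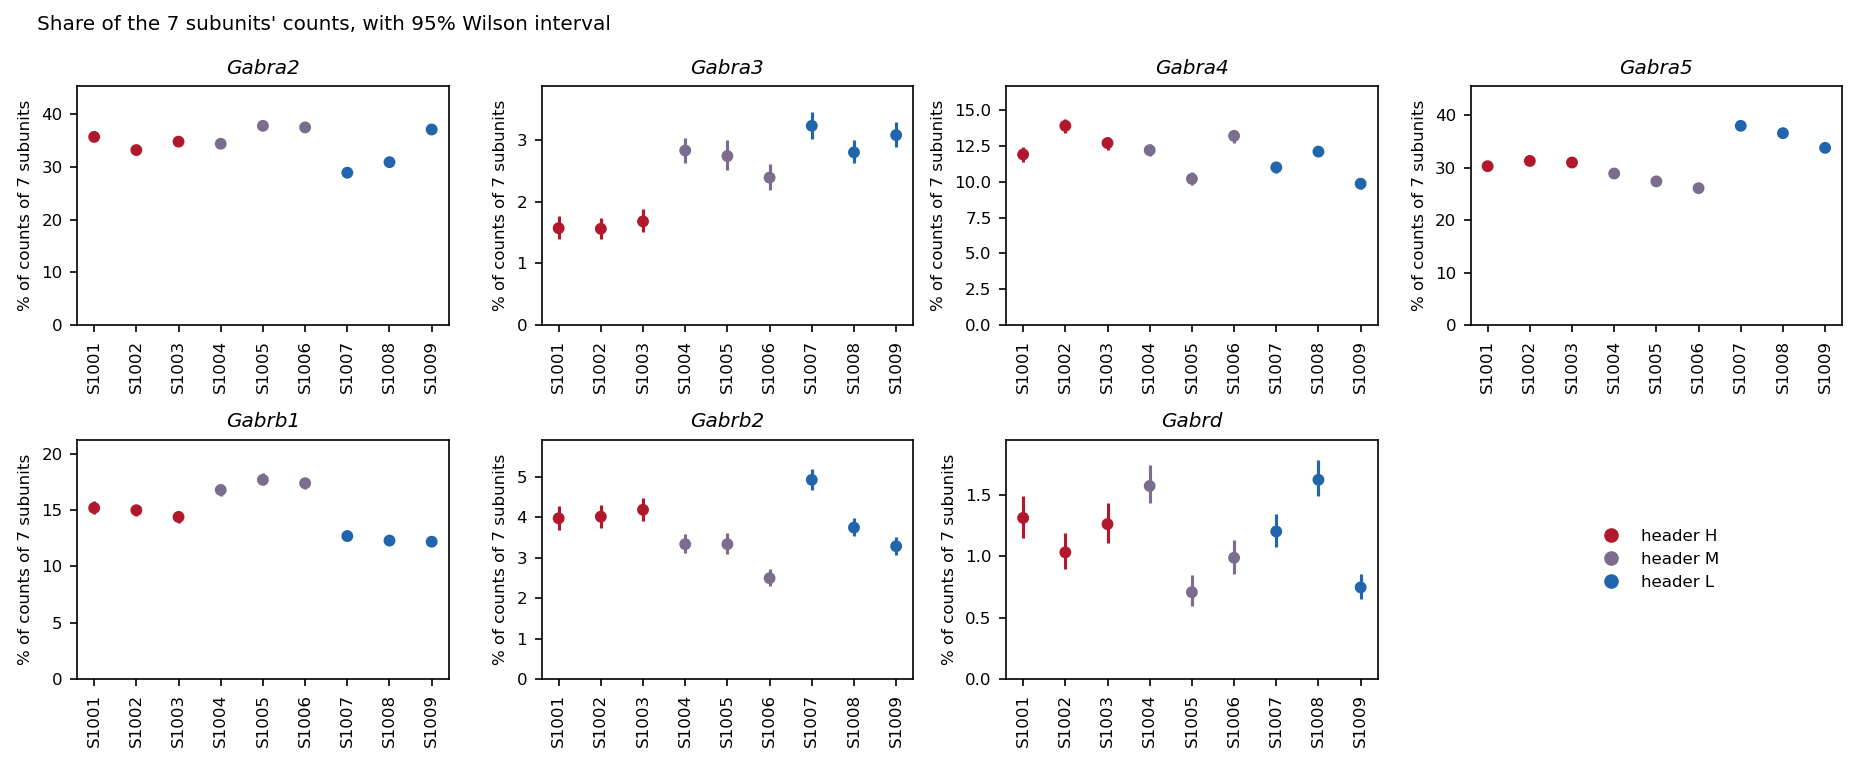
Share of each subunit in the summed counts of the 7 subunits, in percent, with the 95% Wilson interval as a vertical line (often smaller than the point). Libraries run from S1001 to S1009 and are coloured by header letter H, M and L. The Gabra5 and Gabrb1 shares separated the 3 letters, and the Gabra3 share separated H from M and L.

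Ratios of 2 subunits within a library matched the shares only in part. There were 0.850, 0.943 and 0.890 Gabra5 counts per Gabra2 count in the H libraries, 0.840, 0.725 and 0.697 in the M libraries and 1.31, 1.18 and 0.910 in the L libraries. S1009 overlapped the H libraries in this ratio. Gabrb2 counts per Gabrb1 count were 0.261, 0.267 and 0.289 in the H libraries, 0.198, 0.188 and 0.144 in the M libraries and 0.386, 0.305 and 0.269 in the L libraries. The M libraries lay below all others. Gabra3 counts per Gabra5 count were 0.0498 to 0.0542 in the H libraries, 0.0915 to 0.100 in the M libraries and 0.0766 to 0.0913 in the L libraries, so that the H libraries stood apart and M and L did not overlap by a margin of 0.0915 against 0.0913. That margin is far inside the 95% counting intervals of the ratios.

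Gabra4 and Gabrb1 start next to each other on chromosome 5, on opposite strands, and 46 bases of their annotated exons coincide. Their levels over the libraries were not parallel. Gabra4 counts per Gabrb1 count ranged from 0.577 in S1005 to 0.989 in S1008. Gabra2 lies on the same chromosome, on the side of Gabra4 away from Gabrb1. No source used here gives the strand setting of the counting, so how reads in the 46 shared bases were counted is not known.

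Gabrd, which forms receptors with Gabra4 in dentate granule cells, was compared with markers of those cells. Gabrd was lowest in S1005 (8.34 CPM) and S1009 (12.3 CPM) and highest in S1008 (29.1 CPM). C1ql2, a synaptic organiser of the granule cells' mossy fibres, measured 2.69 CPM in S1005, 2.28 CPM in S1009 and 36.1 CPM in S1008. S1007 differed, with 5.38 CPM of C1ql2 and 20.9 CPM of Gabrd. In S1001 to S1003, C1ql2 measured 21.1, 19.5 and 22.9 CPM, and Gabrd 18.0, 15.1 and 17.8 CPM. Gabrd was thus lower there than in S1007, although C1ql2 was higher. S1004 had 19.8 CPM of C1ql2 and 20.1 CPM of Gabrd, and S1006 had 13.4 and 14.2 CPM. Stxbp6, another granule cell gene, measured 2.00 CPM in S1005, 1.17 CPM in S1009, 3.90 CPM in S1007 and 20.8 CPM in S1008. These 2 had the widest spread of the list, and the 2 of highest mean ran otherwise. Lct measured 5.03 CPM in S1005, 26.6 CPM in S1009 and 15.8 CPM in S1008, and Calb1, a calcium-binding protein, 353 CPM in S1005, 405 CPM in S1009 and 391 CPM in S1008. The other markers of the list, looked at after their values were seen, were each lower in S1005, S1007 and S1009 than in S1008. The smallest margin was 7.45 CPM in S1005 against 8.28 CPM in S1008, for Pdzd2. Of the 10 dentate granule markers, 10 were detected in the H and M libraries and 9 to 10 in the L libraries. Their summed level, mostly Calb1, which interneurons and CA1 neurons also express, was 330.0 to 372 CPM in the H libraries, 386 to 438 CPM in the M libraries and 347 to 538 CPM in the L libraries. The part of granule cells in the Gabrd values was not tested.

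**Figure D5:**
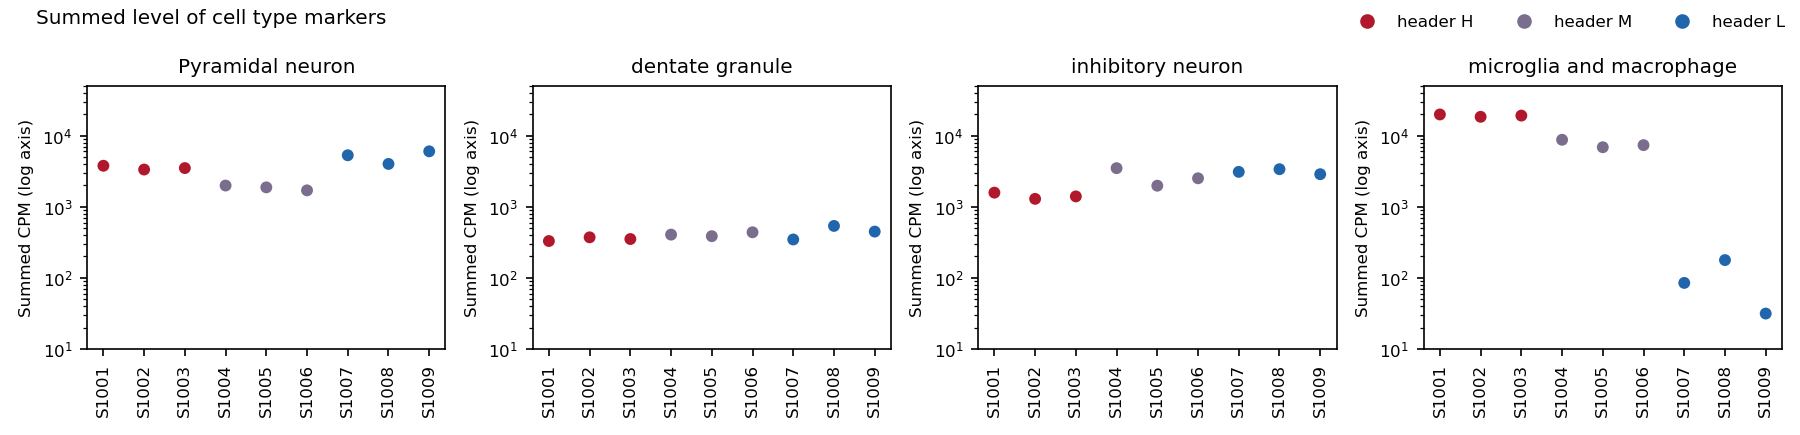
Summed CPM of the pyramidal neuron, dentate granule, inhibitory neuron and microglia and macrophage markers in each library, on log axes of the same range, coloured by header letter H, M and L. The microglia and macrophage sum lay between 18439 and 19891 in the H libraries and between 31.5 and 178 in the L libraries, and the inhibitory neuron sum was lowest in the H libraries.

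Inhibitory neurons also express GABA-A subunits, and their markers moved between letters. The summed CPM of 14 inhibitory neuron markers was 1293 to 1581 in the H libraries, 1980.0 to 3494 in the M libraries and 2874 to 3379 in the L libraries, with 14 detected in each H and M library and 13 to 14 in the L libraries. Cck, which pyramidal neurons also express, and Sst were its most abundant members. Every H library was below every M library for 11 of the 14, against 21.3% of all genes, and below every L library for 10 of the 14, against 26.2%. Gabra3, the subunit lowest in the H libraries, shared that feature. Gad1, which makes GABA, measured 241, 131 and 224 CPM in S1004 to S1006, and Gabra3 36.0, 32.4 and 34.5 CPM. Their order was alike, but the counting error of Gabra3 there was 3.82% to 4.61%, so its order is uncertain. In S1007 to S1009 the orders differed, with 353, 574 and 141 CPM of Gad1 and 56.1, 50.1 and 51.0 CPM of Gabra3. Vip, the marker of widest spread, ran otherwise, at 134, 103 and 157 CPM in S1004 to S1006. It measured 164 CPM in S1007, 0.305 CPM in S1008 and 0.555 CPM in S1009. The part of inhibitory neurons in the Gabra3 values was not tested, nor was that of the CA3 markers, whose sum ran from 14.4 CPM in S1002 to 42.1 CPM in S1008 and was higher in every L library than in every H and M library.

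Other genes of the receptor family were few at measurable levels. Of 12 other Gabr genes, 5 had a mean of at least 1 CPM, and 0 of these 5 passed 2-fold, against 26.4% of all genes. Gabrg1, a gamma subunit, ranged from 0.807 CPM in S1007 to 5.96 CPM in S1006. Gabrg3, another gamma subunit that was singled out after its values were seen, ranged from 14.7 to 24.4 CPM. The metabotropic GABA-B receptor genes Gabbr1 and Gabbr2 ranged from 225 to 327 CPM and from 107 to 148 CPM. Both were lower in every M library than in every H and every L library, and neither passed 2-fold.

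Genes that anchor and move GABA-A receptors were mostly even. Of 18 such genes, all at 1 CPM or more, 1 passed 2-fold, against 26.4% of all genes, and the median spread was 0.42 on the log2 scale. That gene was Plcl1, a binding partner of GABARAP and of beta subunits, which measured 7.13, 5.68 and 7.70 CPM in the H libraries, 2.05, 1.65 and 5.52 CPM in the M libraries and 1.68, 2.80 and 3.02 CPM in the L libraries. Nsf, a membrane fusion ATPase, ranged from 804 to 1622 CPM, and Gabarapl1, a relative of the trafficking factor GABARAP, from 484 to 948 CPM. Both were higher in every L library than in every H and M library. Gabarap itself, looked at after its values were seen, was lower in every L library than in every H and M library. It measured 318, 297 and 297 CPM (H), 356, 261 and 305 CPM (M) and 216, 180.1 and 233 CPM (L). Gphn, the gephyrin scaffold of inhibitory synapses, named after its values were seen, ranged from 72.2 to 107 CPM.

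Of 8 genes that make, carry and break down GABA, 7 reached 1 CPM and 5 passed 2-fold, against 26.4% of all genes. Every H library was below every L library for 5, against 26.2% of all genes. Gad1 measured 37.7, 36.4 and 43.8 CPM in the H libraries, 241, 131 and 224 CPM in the M libraries and 353, 574 and 141 CPM in the L libraries. Gad1, Gad2 and Slc32a1, the vesicular GABA transporter, are also in the list of inhibitory neuron markers. Of 10 genes of chloride transport, which sets the driving force of these receptors, all reached 1 CPM and 2 passed 2-fold, close to the 26.4% of all genes. Slc12a5, the chloride exporter KCC2 of mature neurons, ranged only from 139 to 209.6 CPM, with S1009 highest, and Clcn3, a chloride and proton exchanger, from 169.8 to 225 CPM. Slc12a2, the chloride importer NKCC1, which glia also express, measured 28.0, 33.0 and 31.6 CPM in the H libraries, 12.1, 8.55 and 17.9 CPM in the M libraries and 4.37, 5.73 and 3.33 CPM in the L libraries. Summed CPM of oligodendrocyte precursor markers was 87.3 to 92.2 (H), 10.8 to 17.7 (M) and 0.431 to 6.09 (L). Oligodendrocyte markers summed to 597 to 620.5 (H), 93.3 to 155 (M) and 31.7 to 60.5 CPM (L). Microglia and macrophage markers ran in that order too. Astrocyte markers did not, at 238 to 249.7 (H), 244 to 428 (M) and 117 to 242 CPM (L). The part of these cells in the Slc12a2 values was not tested. Slc4a3, an anion exchanger, ranged from 16.4 to 42.4 CPM.

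For the 3 subunits of widest spread on the CPM scale, the genes with the most similar profile were sought among the 9639 genes that averaged 10 CPM or more. Likeness was the root mean square difference of the median-centred log2 values over the 9 libraries. Gabra3 was closest to Dync1i1, a dynein intermediate chain of neurons, at a difference of 0.124, then Eipr1 (0.130) and Cars (0.141). Dync1i1 measured 171 to 189 CPM in the H libraries, 264 to 291 CPM in the M libraries and 346 to 371 CPM in the L libraries. Gabra5 was closest to Slc1a1, a neuronal glutamate transporter (0.071), then Ubfd1 (0.094) and Seh1l, a nuclear pore protein (0.098). Gabrb2 was closest to Elmo2 (0.078), Ncoa5 (0.105) and Kcnab1, a beta subunit of potassium channels (0.112). The libraries fell into separate sets by letter, so no correlation is given.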

How the data were processed

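RNA of sorted hippocampal cells was measured in 9 libraries. Each table lists 51912 Ensembl genes with 1 raw count and 1 FPKM column, as the authors deposited them per the file headers. The tools listed in the submitters' processing notes are HTSeq 0.6.1, HISAT2 2.0.1, Trimmomatic 0.30 and bcl2fastq 2.17.1.14, with build mm10. No source used here gives their roles, the annotation release, the strand setting or the treatment of reads with several matches. Symbols and coordinates came from GENCODE M21, which holds 51633 (99.46%) of the identifiers, and promoter sequence from RefSeq (GRCm38.p6), which matched 6 of the 7 members.

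CPM were computed from the counts with TMM scaling (edgeR 4.0.16, R 4.3.3). A pseudocount of 1 CPM was added before log2. FPKM was used only to compare levels between genes. Over 4019 well counted genes, count per FPKM followed the library totals within 0.424%. The limit that a count of 0 allows (3 counts) lay at 0.157 to 0.247 CPM, by library. For library pairs, genes under 10 counts in both together were left out. Other tools were Python 3.11.15, numpy 2.4.6, pandas 2.3.3, scipy 1.17.1 and matplotlib 3.10.9.

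Of 9 libraries, 0 had a group in the labels, so no differential test was run, although 3 libraries share each header letter. The 7 members and the gene lists were chosen with earlier results of these data known. The text names the 7 members, and of each list the 2 genes of highest mean and the 2 of widest spread, and for the 3 members of widest spread in CPM the 3 nearest genes. Some of the genes this rule names are not reported here. Alternatives were 6 other scalings (1 with DESeq2 1.42.0), pseudocounts of 0.5 and 5 CPM, no minimum or 10 CPM, the full range, and leaving out each library.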

Additional observations from a re-analysis of the deposited data

Results flagged for a closer look

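Gabrb1 in S1006 was 251 CPM, against 202 to 222 CPM in the other 8 libraries. Its gap to the nearest library, as a part of the range of all 9, exceeded Dixon's 95% critical value. Each of the 7 members was examined in this way for its CPM and for its share of the members' counts, and chance flags about 1 in 20 such sets. The share of Gabrb1 in S1006, 17.4%, lay within that of the other M libraries.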

How the results depend on the processing

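The count of 1 member past 2-fold became 5 with counts set against the summed pyramidal neuron markers, 2 with the geometric mean of these markers and 4 with the full range, and was 1 under every other setting. Over all alternatives the spread was 1.01 to 1.37 for Gabra3, 0.08 to 1.41 for Gabrb1, 0.49 to 1.69 for Gabrd, 0.18 to 1.22 for Gabra2, 0.30 to 1.11 for Gabra4, 0.57 to 1.03 for Gabra5 and 0.37 to 1.22 for Gabrb2. Over all genes, 3911 of 14787 (26.4%) passed 2-fold under the main setting. This became 12650 of 15254 (82.9%) with the summed markers and 5279 of 14897 (35.4%) with the geometric mean. A pseudocount of 5 CPM gave 1955 of 14787 (13.2%), and a minimum of 10 CPM gave 1770 of 9646 (18.3%). The full range gave 7771 of 14787 (52.6%), and leaving out 1 library gave 3209 to 3659 (21.6% to 24.8%). With the summed markers, members apart by letter numbered 1 for H above L, 1 for H below L, 6 for M above L, 0 for M below L, 0 for H above M and 6 for H below M. With the geometric mean these were 0, 2, 1, 0, 0 and 3. The marker scalings moved every gene of a library alike, by -0.78 to 1.04 and by -0.19 to 0.74 on the log2 scale. Leaving out 1 library gave 3 to 6 members for H below L (6 without S1009), 3 to 5 for M below L (5 without S1006), 2 to 4 for H above M (4 without S1006) and 1 to 2 for H below M (2 without S1002). The share of all genes apart by letter was not taken under these settings. These counts are therefore not read as a result about the members. Median shares from FPKM in place of counts were higher for Gabra5, with its short exon union (53.1%, against 31.0%). They were lower for Gabrb1, with its long exon union (5.54%, against 15.0%). Counting error limits Gabrd most, at 4.58% to 9.09% per library. Which scaling reflects the RNA per neuron cannot be told from these files.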
